A study of Mus musculus with 12 samples.

Results

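H3K4me3 was described at 7 genes for making, loading or breaking down GABA or for loading glutamate, among 21951 protein-coding genes of the GENCODE M21 annotation. They are the 4 GABA genes Gad1, Gad2, Slc32a1 and Abat and the 3 vesicular glutamate transporter genes Slc17a6, Slc17a7 and Slc17a8. The genes were chosen by their function, although earlier results of these data were known. For each of them, the peaks lying within 5 kb of any annotated transcription start site (TSS) were taken from 4 lists of H3K4me3 peaks, 1 per region of the embryonic mouse forebrain. Wild-type C57BL/6J embryos gave the medial (MGE), lateral (LGE) and caudal (CGE) ganglionic eminence and the somatosensory cortex (CTX). The age was taken as E12.5, which the paper's text gives for this assay, although its methods and the deposited protocol name a later day as well. A sentence of that protocol can also be read as nuclei of all regions having been combined before the reaction. Each library is labelled with 1 region and was used as such, and mixing of regions was not tested. Tissue of several embryos was pooled, and 2 biological replicates per region were processed by CUT&Tag. In this method an antibody directs a transposase to chromatin that carries the modification. The replicates are held in 12 libraries, 4 for CGE, 3 each for MGE and CTX and 2 for LGE, so some replicates have more than 1. The replicates of a region were merged before peaks were called, so each value below is a single value without a replicate error, and no difference between regions was tested.

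H3K4me3 is found on nucleosomes around the start sites of active and poised genes, and broad domains of it are known at genes that define a cell's identity. GABA is made from glutamate by the decarboxylases encoded by Gad1 (GAD67) and Gad2 (GAD65), is loaded into synaptic vesicles by the transporter encoded by Slc32a1 (VGAT), and is broken down by the transaminase encoded by Abat. Glutamate is loaded by VGLUT2, VGLUT1 and VGLUT3, encoded by Slc17a6, Slc17a7 and Slc17a8. The ganglionic eminences are the birthplace of GABAergic neurons of the forebrain, whereas the dorsal cortex gives rise to glutamatergic neurons. A bulk list does not separate a change in the share of cells that carry the mark from a change in its extent per cell.

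The start regions of the 3 genes that make and load GABA and of the 2 transporter genes with a peak are shown first. The peaks of single genes are described below by the TSSs of GENCODE, which can differ from the RefSeq starts of the sequences. Of the 7 genes, 6 had an entry in the RefSeq promoter table (GRCm38.p6), which Abat did not. Only bases that lie before the RefSeq start and in no annotated exon of the gene are shown, 5′ to 3′, and those of Gad1 lie downstream of a more distant annotated start of that gene. In each sequence, capitals mark CpG dinucleotides, the sites that CpG-binding subunits of H3K4 methyltransferase complexes are known to recognise.
Gad1, plus strand, chr2:70561879-70562041: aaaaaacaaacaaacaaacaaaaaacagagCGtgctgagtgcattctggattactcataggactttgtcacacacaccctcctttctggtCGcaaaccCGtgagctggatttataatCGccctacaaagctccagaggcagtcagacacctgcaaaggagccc
Gad2, plus strand, chr2:22622077-22622204: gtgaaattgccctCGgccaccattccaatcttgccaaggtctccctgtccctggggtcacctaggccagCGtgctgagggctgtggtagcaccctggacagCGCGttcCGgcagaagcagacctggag
Slc32a1, plus strand, chr2:158610508-158610757: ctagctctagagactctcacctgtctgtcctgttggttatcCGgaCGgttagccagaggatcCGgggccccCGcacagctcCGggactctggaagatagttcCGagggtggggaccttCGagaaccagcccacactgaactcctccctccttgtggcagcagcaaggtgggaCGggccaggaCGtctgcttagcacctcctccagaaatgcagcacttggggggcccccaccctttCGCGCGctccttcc
Slc17a6, plus strand, chr7:51621580-51621829: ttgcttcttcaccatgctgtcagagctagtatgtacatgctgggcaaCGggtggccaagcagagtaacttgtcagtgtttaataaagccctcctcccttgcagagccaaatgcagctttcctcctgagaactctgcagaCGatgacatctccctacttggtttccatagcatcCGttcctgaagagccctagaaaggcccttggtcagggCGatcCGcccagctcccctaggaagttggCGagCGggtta
Slc17a7, plus strand, chr7:45163671-45163920: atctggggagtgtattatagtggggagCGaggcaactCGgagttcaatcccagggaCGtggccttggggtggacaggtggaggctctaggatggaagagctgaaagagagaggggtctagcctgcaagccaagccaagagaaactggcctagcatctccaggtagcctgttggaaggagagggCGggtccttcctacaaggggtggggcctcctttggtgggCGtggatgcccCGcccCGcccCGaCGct

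Over the full table entries of 300 bases, from 250 before to 50 after the RefSeq start, Gad1 held 21 CpG dinucleotides, Slc32a1 17, Gad2 14 and Slc17a7 13. The first start of Slc17a6 held 8 and that of Slc17a8 held 7, next to a median of 7 over all 32851 promoters of the table. The observed over expected CpG ratio was 0.849 at Gad1, 0.574 at Slc32a1, 0.543 at Gad2, 0.438 at Slc17a7, 0.373 at Slc17a6 and 0.279 at Slc17a8, and the median of all promoters was 0.384. The window of Slc17a7 had no peak on it in any list, whereas that of the first start of Slc17a6 had one in each of the 4. Searched on both strands, GGGCGG was found 3 times at Slc17a7, with 2 of the matches overlapping by 1 base, and 1 time each at Gad1 and at the first start of Slc17a6, and 35.7% of all promoters hold it. CCAAT was found 2 times at Gad2 and at no other member, and 37.4% of promoters hold it. TATAAA was found at Gad1 only, on the other strand, against 13.6% of promoters. The RE1 element part GGACAGC was found at Gad2 only, against 6.56% of promoters, and the other part, TTCAGCACC, at none, against 0.371%. TAATTA and CAGATG were found together at the second starts of Slc17a6 and Slc17a8, CAGATG also at Gad2, and CAGCTG at none of the members. These 3 are held by 5.29%, 17.2% and 16.3% of all promoters. A match of letters does not show that a factor binds there.

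At least 1 peak lay within 5 kb of a TSS for 6 of the 7 genes in each of the MGE, LGE and CGE lists and for 5 in the CTX list. Among all protein-coding genes the share with such a peak was 65.0% for MGE, 64.2% for LGE, 64.6% for CGE and 63.8% for CTX. All 4 GABA genes had a peak in each eminence and 3 of them in CTX, where Slc32a1 had none. Of the 3 glutamate transporter genes, Slc17a6 and Slc17a7 had a peak in every list and Slc17a8 in none. With all peaks counted, presence of a peak thus separated the regions at 1 gene only, and the regions differed mainly in how many bases were covered. When a −log10 q of at least 2 was required, Gad1 also had no peak in CTX and Slc17a6 none in MGE. The authors' peak numbers ran on without a gap across the windows of all 7 genes in each list.

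The number of bases covered within 5 kb of the TSSs had a median over the 4 GABA genes of 1983 for MGE, 2676 for LGE, 3614 for CGE and 291 for CTX. A member without a peak was counted as 0 here, as Slc32a1 in CTX. The median over protein-coding genes with a peak, which leaves out genes without one, was 1044, 1402, 1497 and 1088 bases. The median of the GABA genes lay above it in each eminence and below it in CTX. Abat, at 492 bases in MGE, lay below it in that list. For the 3 glutamate transporter genes the median was 452 bases (MGE), 1657 (LGE), 790 (CGE) and 681 (CTX). With Slc17a8 counted as 0 in every list, only LGE lay above the median of covered genes. In CGE, Slc17a6 alone, at 5574 bases, was above that median and Slc17a7, at 790, below it. In CTX, the region that gives rise to glutamatergic neurons, the group lay below it. Since the lists differ in peak width, each gene was also ranked within its list, as the percentile of its covered bases among protein-coding genes with a peak, and its bases were divided by the list's median to give a relative coverage. By the depths stated in the methods, CGE was sequenced most deeply and MGE least. The depth of the first CTX replicate is misprinted there. The part of depth in the differences between lists was not tested.

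**Figure D1:**
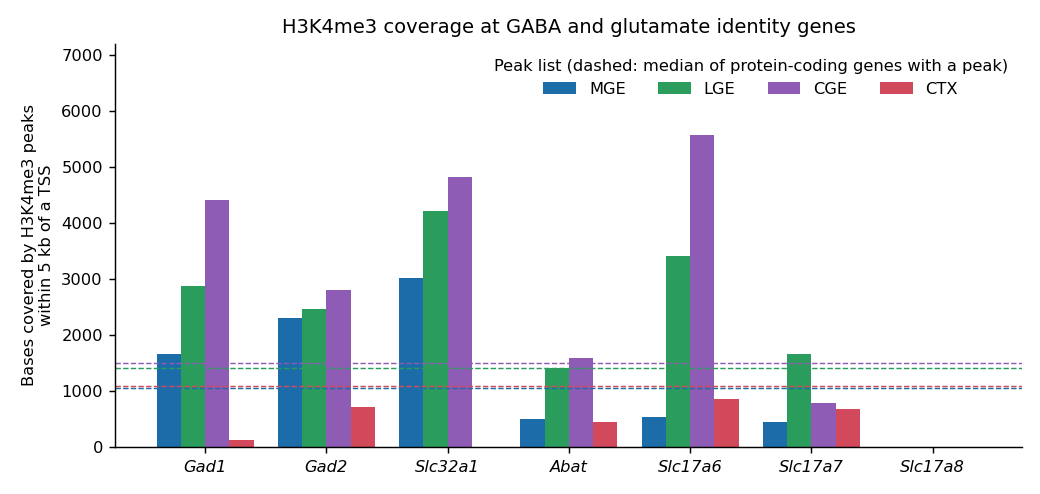
Bars give the bases covered by H3K4me3 peaks within 5 kb of a TSS (y axis) for the 7 genes (x axis) in the 4 lists, and dashed lines the median of protein-coding genes with a peak in that list. Gad1, Gad2 and Slc32a1 are above the line in all 3 eminences and below it in CTX, Slc17a6 is above it in LGE and CGE only, and Slc17a8 has no bar.

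A gene was called eminence-high when its lowest relative coverage among MGE, LGE and CGE was at least 2 times that in CTX, and cortex-high when CTX was at least 2 times the highest eminence. Of 14900 protein-coding genes with a peak in at least 1 list, 448 (3.01%) were eminence-high and 214 (1.44%) were cortex-high. The eminence-high genes included 3 of the 4 GABA genes, Gad1, Gad2 and Slc32a1, that is, both synthetic enzymes and the vesicular transporter. Abat and the 3 glutamate transporters were not among them, and none of the 7 genes was cortex-high.

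Gad1 (ENSMUSG00000070880.10, chr2:70553072-70602014, plus strand) encodes the decarboxylase that makes most of the GABA in the brain. Peaks covered 1663 of its bases in the MGE list, 2883 in the LGE list, 4418 in the CGE list and 129 in the CTX list. Every eminence was thus more than 10 times CTX. Within the lists these values stood at percentile 82.7, 92.9, 98.1 and 0.464. The relative coverage was lowest among the eminences in MGE, at 1.59, and was 0.119 in CTX. The ratio of these values was 13.4, and 2 of the 13463 genes covered in all 4 lists had a higher one.

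The Gad1 peaks also differed in position. The LGE list had 1 peak of 2883 bp, from 692 bp before to 2190 bp after the TSS of its lowest-numbered transcript in GENCODE, the reference TSS of every gene here, and the CGE list had 1 peak of 4418 bp from 91 to 4508 bp after it. Each of these held 5 of the 7 distinct TSSs of the gene. The MGE list had 2 peaks, of 606 and 1057 bp, that together held 3 TSSs, and all of their bases lay inside the LGE or CGE peak. In CTX a single peak of 129 bp, with a −log10 q of 1.55, lay in an intron 2175 bp after that TSS and held no TSS. It fell inside the CGE peak and inside the second MGE peak, and was removed when a −log10 q of at least 2 was required. The most upstream TSS of the gene, at chr2:70553072, had no peak within 5 kb in any list. The antisense gene Gad1os has a TSS inside the eminence peaks, 85 bp from a TSS of Gad1, and covered bases there cannot be assigned to one of the genes because the mark has no strand.

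Gad2 (ENSMUSG00000026787.3, chr2:22622205-22693874, plus strand), the decarboxylase concentrated at nerve terminals, had 1 peak in every list. It covered 2303 bases (MGE), 2469 (LGE), 2810 (CGE) and 710 (CTX), at percentiles 94.2, 88.5, 90.1 and 20.0. The lowest eminence was 2.70 times CTX in relative coverage, a ratio that 99 of the 13463 genes covered in all 4 lists exceeded. No other gene has a TSS within 10 kb.

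All Gad2 peaks began within a narrow stretch, 432 bp (MGE), 364 bp (LGE), 377 bp (CGE) and 255 bp (CTX) before the TSS. They differed at the other edge, which lay 1870, 2104 and 2432 bp after the TSS in the eminences and 454 bp after it in CTX. The 710 bases of the CTX peak were covered in every other list. Inside the gene, the CTX peak held 455 bases of exon and none of intron, whereas the CGE peak held 876 of exon and 1557 of intron. The eminence peaks held both annotated TSSs and the CTX peak the first of them.

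Slc32a1 (ENSMUSG00000037771.11, chr2:158610767-158615748, plus strand), the transporter that all GABAergic and glycinergic neurons use to fill vesicles, had 3022 covered bases in the MGE list, 4215 in the LGE list, 4829 in the CGE list and 0 in the CTX list. The eminence values stood at percentile 98.2, 98.4 and 98.7, the highest of the GABA genes in each of these lists. A peak in all 3 eminences and none in CTX was found for 245 of the 14900 genes with a peak. The nearest CTX peaks lay 58753 bp before and 8986 bp after the 5 kb window. With no covered base in CTX, no ratio is given.

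One peak over the single TSS was found in each eminence, of 3022, 3805 and 4014 bp, starting 1434 to 1628 bp before the TSS and ending 1587 to 2385 bp after it. LGE and CGE each had a further peak upstream, of 410 and 815 bp, that ended 2965 and 2774 bp before the TSS. The authors' fold enrichment of these upstream peaks was 1.39 and 1.43, near the lowest of their lists. The main peaks were wide and of low fold. Their width stood at percentile 99.9, 99.6 and 99.4 of all peaks in MGE, LGE and CGE, and their fold, at 2.75, 2.13 and 2.54, at percentile 1.07, 0.790 and 3.31. Among the 36 MGE peaks at least as wide, the fold of the Slc32a1 peak was at percentile 9.72. When each list was cut to the length of the shortest by highest fold, the MGE peak was lost and with it the eminence-high call. The noncoding genes Gm14204, which starts 44 bp from Slc32a1 on the other strand, and Gm14205, 1053 bp from it, have all their TSSs inside the eminence peaks.

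Abat (ENSMUSG00000057880.12, chr16:8513429-8621568, plus strand) encodes GABA transaminase, which breaks down GABA in mitochondria of neurons and glia. It had 492 (MGE), 1418 (LGE), 1597 (CGE) and 453 (CTX) covered bases, at percentiles 10.3, 51.1, 56.5 and 7.97. MGE and CTX were alike and low, and LGE and CGE lay near the middle of their lists. The lowest eminence stood at 1.13 times CTX in relative coverage, far from the 2-fold of the eminence-high rule, and Abat did not share the pattern of the genes that make and load GABA.

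The Abat peak held the same 4 of the 7 TSSs in every list and began 175 to 296 bp before the first of them. It ended 287 bp (MGE), 1121 bp (LGE), 1300 bp (CGE) and 277 bp (CTX) after that TSS. Unlike the Slc32a1 peaks it was narrow and of high fold in the 2 lists where it was shortest, with a fold of 10.3 in MGE, percentile 96.2 of that list, and 8.13 in CTX, percentile 84.4. In LGE and CGE the fold was 4.54 and 5.01, at percentiles 30.6 and 38.5. Intronic peaks outside the windows were also present, 3 for MGE, 2 for LGE and 1 each for CGE and CTX, of 306 to 682 bp. With a window of 10 kb, Abat was covered over 981 bases in MGE and became eminence-high.

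**Figure D2:**
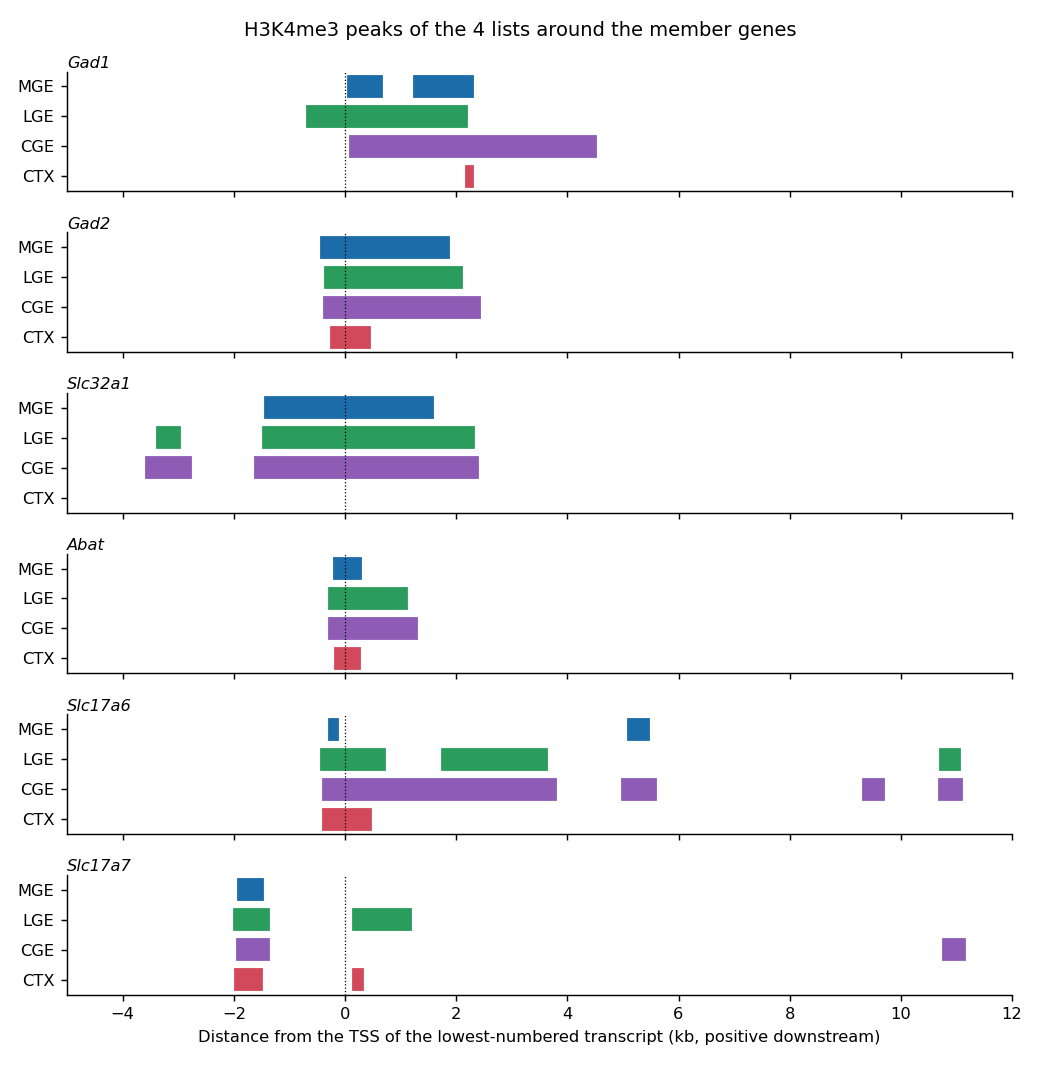
Horizontal bars are H3K4me3 peaks of the 4 lists (rows) along the distance in kb from the TSS of the lowest-numbered transcript (x axis, dotted line at 0, positive downstream) for the 6 genes with a peak. At Gad2 the left edges align and the right edge of the CTX peak is the closest to the TSS, at Slc32a1 the CTX row is empty, and at Slc17a7 all lists share a peak before the TSS and none lies on it.

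Slc17a6 (ENSMUSG00000030500.6, chr7:51622006-51671119, plus strand) encodes VGLUT2, the vesicular transporter that many excitatory neurons use early in development. Peaks covered 541 bases (MGE), 3412 (LGE), 5574 (CGE) and 851 (CTX), at percentiles 12.3, 95.9, 99.3 and 30.6. LGE and CGE were thus high and MGE and CTX low. The lists divide in the same way by median peak width, at 563 bp (MGE), 1168 (LGE), 1240 (CGE) and 701 (CTX). The part of peak width in the pattern was not tested. In CGE, Slc17a6 had more covered bases than any of the GABA genes, in a joined window of 17475 bases against 10001 for Slc32a1. This order depended on the setting. With a −log10 q of at least 2 it had 4803 bases and Slc32a1 4829. With gene 5′ ends, protein-coding TSSs or the lowest-numbered TSS it had 4202 and Slc32a1 4829. With lists of equal length it had 4186 and Gad1 4418. In relative coverage the lower of LGE and CGE, 2.43, was 3.11 times the higher of MGE and CTX, 0.782. A rule written after these values had been seen, LGE and CGE both at least 2 times the higher of MGE and CTX, was met by 407 (2.73%) of the 14900 genes, and among the 7 genes by Slc17a6 and Abat. It describes the pattern and is no test of it.

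At Slc17a6 the CTX list had 1 peak of 851 bp from 390 bp before to 460 bp after the first TSS, which held 2 of the 4 TSSs. It overlapped only exon and upstream bases and lay entirely inside the LGE and the CGE peaks. The CGE list had a peak of 4186 bp, which held 3 TSSs, and 3 shorter peaks of 366 to 617 bp farther into the gene. In LGE the same stretch was split into peaks of 1153 and 1900 bp, with a further peak of 359 bp. The CGE peak began at about the same place as the CTX peak, 399 bp before the TSS, and reached 3786 bp after it, across the second RefSeq start of the gene. MGE had no peak on a GENCODE TSS, but its peak of 153 bp lay over the first RefSeq start, which is upstream of these. Its 2 peaks, of 153 and 388 bp, had a −log10 q of 1.54 and 1.18, and a minimum of 2 removed both.

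The 6 cortical genes that were used to check the tissue labels had, like Slc17a6, less coverage in MGE than in LGE, but most of them were high in CTX, where Slc17a6 was low. Emx1, Emx2, Neurog2, Neurod6, Tbr1 and Eomes, which encode transcription factors of cortical progenitors and glutamatergic neurons, had a peak in every list, 6 of 6. None of them was cortex-high, and none met the rule that described Slc17a6. Their covered bases summed to 3396 for MGE, 17140 for LGE, 16896 for CGE and 11687 for CTX. The range over the 6 genes was 328 to 1359 (MGE), 1132 to 4839 (LGE), 584 to 4893 (CGE) and 242 to 3421 (CTX).

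Since these sums are not scaled for the width of the peaks in a list, the percentiles are also given, in the order MGE, LGE, CGE and CTX. Emx1, which marks the dorsal forebrain, stood at 10.4, 95.7, 95.0 and 97.7, and Neurog2, a factor of cortical neurogenesis, at 6.30, 81.5, 78.7 and 92.0. Both were highest in CTX. Emx2 stood at 70.4, 99.2, 98.8 and 98.7, and Eomes, a factor of intermediate progenitors, at 8.80, 92.4, 90.8 and 82.5. Tbr1, a factor of newborn glutamatergic neurons, was at 8.45, 92.8, 91.4 and 57.5, and Neurod6 was low throughout, at 5.94, 29.2, 3.24 and 3.38. Apart from Neurod6, the cortical genes were thus widely covered in the LGE and CGE lists. Apart from Emx2, they were low in MGE. The part of cortical cells or nuclei in the LGE and CGE values of Slc17a6 was not tested.

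Each marker of an eminence had a peak in its own list, and each also had one in the other eminences. Nkx2-1, Lhx6 and Lhx8, markers of the MGE, were eminence-high, and Nkx2-1 and Lhx8 had no peak in CTX. They were also covered in LGE and CGE, where the 3 summed to 7853 and 12214 bases next to 8385 in MGE. The LGE markers Isl1, Ebf1 and Foxp1 summed to 5564 bases for MGE, 9131 for LGE, 13631 for CGE and 6240 for CTX, so that CGE exceeded LGE, and Foxp1 was highest in CTX, at 4986 bases. The CGE markers Nr2f1, Nr2f2 and Prox1 summed to 9483, 14527, 23189 and 6972 bases in the same order, with CGE highest. None of the LGE and CGE markers was eminence-high, and Ebf1 met the rule that described Slc17a6. Of the 6 genes that mark all eminences, Dlx1, Dlx5, Dlx6 and Gsx2 were eminence-high. Of markers of other cells, 0 of 4 microglial genes had a peak in any list, and 2 or 3 of 4 endothelial, 2 of 4 erythroid and 3 or 4 of 4 mesenchymal genes did. Their covered bases summed to 1675 to 2248, 1227 to 2022 and 1905 to 5434 over the lists. The mesenchymal sum was 1990 for MGE, 2920 for LGE, 5434 for CGE and 1905 for CTX. One mesenchymal gene, Foxc1, was eminence-high like Gad1, Gad2 and Slc32a1, with 1127, 1448, 2835 and 511 bases, and another, Col1a1, was cortex-high. The endothelial gene Cdh5 and the erythroid genes Alas2 and Gata1 had no peak. The part of such cells in the values of the members was not tested.

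**Figure D3:**
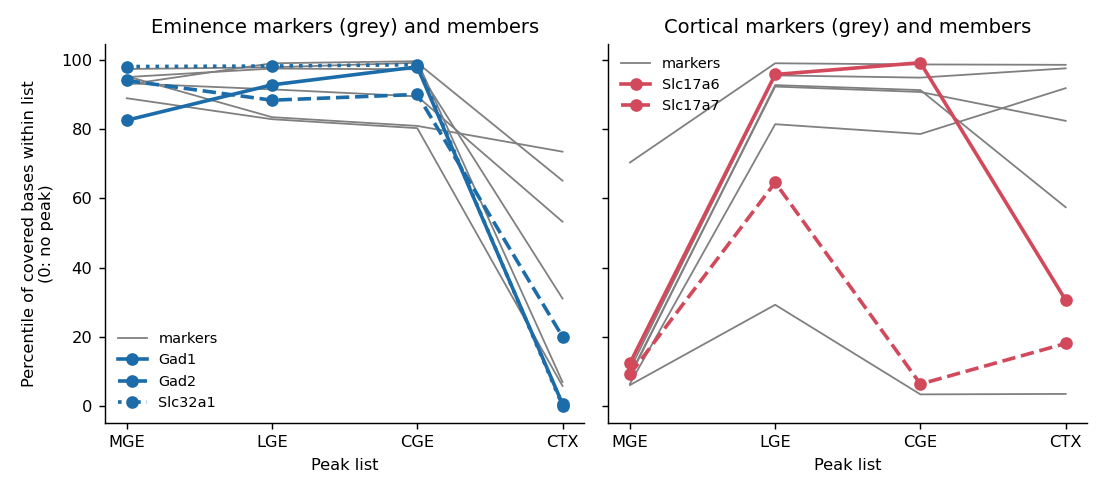
Percentiles of covered bases within each list (y axis, 0 where there is no peak) are joined by lines across the 4 lists (x axis), for eminence markers with Gad1, Gad2 and Slc32a1 on the left and cortical markers with Slc17a6 and Slc17a7 on the right. Gad1, Gad2 and Slc32a1 fall from above percentile 80 in the eminences to percentile 20.0 or lower in CTX, and Slc17a6 is low in MGE, high in LGE and CGE and at percentile 30.6 in CTX, where 4 of the 6 cortical markers are above 80.

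Slc17a7 (ENSMUSG00000070570.5, chr7:45163949-45176142, plus strand) encodes VGLUT1, the transporter of most mature cortical excitatory synapses. It had 452 (MGE), 1657 (LGE), 790 (CGE) and 681 (CTX) covered bases, at percentiles 9.06, 64.6, 6.24 and 18.0. LGE was highest and the other lists were at percentile 18.0 or lower. None of these bases lay on any of its 5 TSSs.

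A peak of 452 to 618 bp was shared by the 4 lists and ended 1360 to 1497 bp before the TSS, outside the gene. It also lies in the 5 kb window of Pih1d1, a gene for a chaperone subunit on the same strand, so it is not particular to Slc17a7, and the same holds for the peaks just after the TSS. At that place, LGE had a peak of 1039 bp from 144 to 1182 bp and CTX one of 192 bp from 139 to 330 bp, mostly over intron. Their fold was 3.34 and 2.93, and the CTX peak, with a −log10 q of 1.66, was removed by a minimum of 2. MGE and CGE had no peak at that place. CGE had one of 402 bp near the end of the gene, 10752 bp after the TSS, which also lies in the windows of Gfy and Mir7055.

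Slc17a8 (ENSMUSG00000019935.16, chr10:89574020-89621253, minus strand) encodes VGLUT3, a transporter found in smaller sets of neurons that often release another transmitter too. It had no peak in any list, within 5 or 10 kb of its 2 TSSs or anywhere in the gene. The nearest peaks lay 150625 to 150783 bp on one side of its window and 59120 to 59386 bp on the other. No peak in any list was found for 7051 of the 21951 protein-coding genes.

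**Figure D4:**
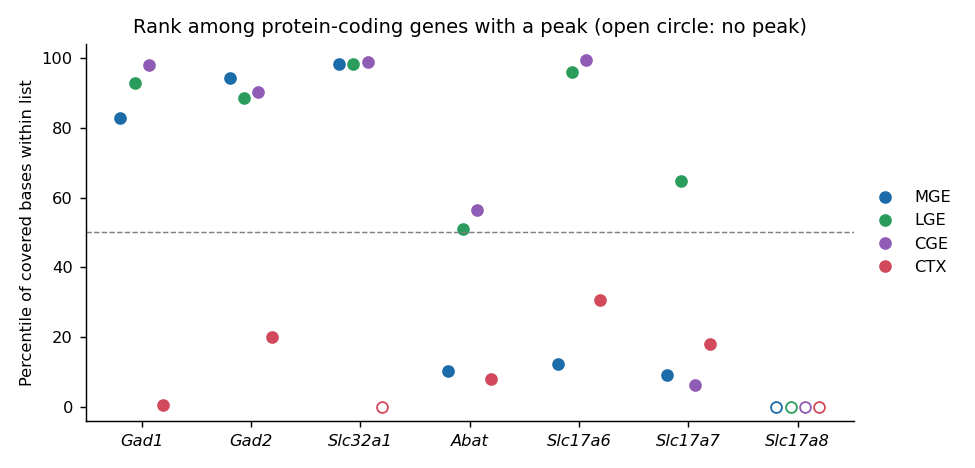
Circles give the percentile of covered bases within each list (y axis) among protein-coding genes with a peak, for the 7 genes (x axis), with open circles at 0 for no peak and a dashed line at 50. Gad1, Gad2 and Slc32a1 lie above 80 in the eminences, and all 6 genes with a peak lie below 31 in CTX or have none there.

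The genes with the most similar pattern were taken by the distance between the percentiles in the 4 lists. Slc32a1 was nearest to Six3, at 4.21 percentile points, and to Nkx2-1 and Grik3, at 5.52 and 6.87. Six3 and Nkx2-1 encode forebrain transcription factors and Grik3 a kainate receptor subunit, and Nkx2-1 and Grik3 also had no peak in CTX. Gad1 had few near genes, with Islr at 9.08, Rbfox1 at 9.76 and Myt1 at 10.5 points, and 2 genes within 10 points in all. Gad2 was nearest to Cbfa2t3, at 6.15, then Cdk5r2 and Osbp2. Abat was nearest to Hapln4, Syn1 and Acy1, at 5.44 to 5.68 points, with 11 genes within 10 points. Slc17a6 was nearest to Pdzrn4, at 7.66 points and the only gene within 10, then Espn and Adcyap1. No gene lay within 10 points of Slc17a7, whose nearest were Rxrg, Ghrh and Nkx3-2, at 11.0 to 13.9.

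**Figure D5:**
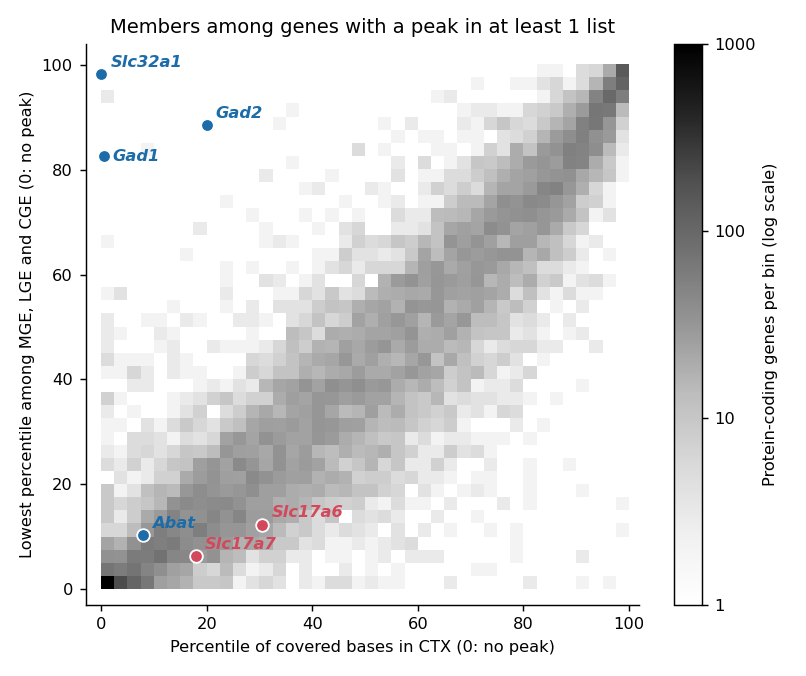
Grey shading counts protein-coding genes with a peak in at least 1 list (log scale) by their percentile in CTX (x axis) and their lowest percentile among MGE, LGE and CGE (y axis), with 0 for no peak, and points mark the 6 genes with a peak. Gad1, Gad2 and Slc32a1 lie at the upper left, away from the diagonal band, and Abat, Slc17a6 and Slc17a7 lie in the lower left, within or near it.

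Other genes of GABA, glutamate and further transmitters numbered 38. Of these, 23 had a peak in MGE, 25 in LGE and in CGE and 24 in CTX. Among all protein-coding genes the share with a peak was 63.8% to 65.0% over the lists. None of the 38 genes was eminence-high or cortex-high. Only 3.01% and 1.44% of all genes with a peak were so called, so the lack of calls does not set these genes apart. The median number of covered bases over the 38 genes, with 0 for no peak, was 435.5 for MGE, 1038.5 for LGE, 1061 for CGE and 304 for CTX.

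Among GABA transporters of the plasma membrane, Slc6a11, the glial transporter GAT3, was covered over 416, 1172, 1311 and 279 bases in MGE, LGE, CGE and CTX. It also met the rule that described Slc17a6, at percentiles 32.35 in LGE and 36.7 in CGE. Slc6a12 had a peak in MGE only, of 169 bases, and Slc6a13 had none. Aldh5a1, which encodes the enzyme that follows Abat in GABA breakdown, was covered over 885, 1276, 1250 and 1042 bases.

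Genes of glutamate supply were evenly covered. The glutaminase Gls2, the glutamine synthetase Glul and the glutamine transporters Slc38a1 and Slc38a2 had 1809 to 2284 bases (MGE), 2021 to 2466 (LGE), 2026 to 2438 (CGE) and 1686 to 2265 (CTX). Of the 5 glutamate transporters of the plasma membrane, 4 had a peak in every list and Slc1a7 in none. The most covered bases among these 5 were 973 for MGE, 1945 for LGE, 2097 for CGE and 1083 for CTX. Of 8 relatives of the members, the 6 other SLC17 genes and Gadl1 had no peak in any list. Csad, a decarboxylase of taurine synthesis, was covered over 1411 to 1881 bases.

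The rule written for the Slc17a6 pattern asks for LGE and CGE high against MGE and CTX. It was met by 407 (2.73%) of the 14900 genes with a peak. Among 15 genes of other transmitters, of which 12 had a peak in LGE and 12 in CGE, 4 met it. They were Chat and Slc18a3, which make and load acetylcholine and share their window, Slc6a4, the serotonin transporter, and Slc6a5, a glycine transporter. Chat and Slc18a3 had the same 0 (MGE), 2188 (LGE), 2367 (CGE) and 125 (CTX) covered bases, so they are not separate cases. Slc6a4 was covered over 326, 1129, 1348 and 254 bases, at percentiles 28.9 in LGE and 39.6 in CGE. Slc6a5 had a peak in LGE and CGE only, of 324 and 341 bases, at percentiles 0.89 and 0.97. For Slc6a4 and Slc6a5 the rule thus marks a contrast with MGE and CTX and not wide coverage. Dbh, Tph2 and Slc6a2, genes of noradrenaline and serotonin neurons, had no peak in any list. Th, the first enzyme of dopamine synthesis, had 286 to 458 bases in the 4 lists.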

How the data were processed

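The authors aligned paired-end CUT&Tag reads to GRCm38/mm10 with Bowtie2, removed blacklisted regions and duplicates (Picard), merged the replicates with SAMtools and called broad peaks with MACS, whose version, threshold and control are not given in the sources used here. The deposited lists hold peak positions, a fold enrichment (a ratio to the background the caller estimated), a −log10 q and a score derived from it. Reads per peak are unknown, so no interval could be computed. The 4 columns of −log10 p were not used.

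Members and lists were chosen with earlier results of these data known. TSSs came from GENCODE M21, and overlapping windows were joined. Percentiles are mid-ranks. Named genes were the members, genes with a TSS within 10 kb of one, pathway genes that were called or had a peak in 1 to 3 lists, the 3 genes nearest in percentile, and tissue markers lacking a peak at home. Other pathway genes and markers named were picked after their values were seen. Python 3.11.15, numpy 2.4.6, pandas 2.3.3 and matplotlib 3.10.9 were used, and the computations were checked on simulated data. Alternatives were a −log10 q of at least 2, list lengths of 17284 peaks, a minimum width of 243 bp, windows of 2 and 10 kb, gene 5′ ends, TSSs of protein-coding transcripts, peaks less than 1 kb apart joined, no scaling, a fold of 1.5, other rankings and, chosen after seeing the data, the TSS of the lowest-numbered transcript only. Some pathway and marker genes are not reported here by name but are included in the counts, sums and medians of their lists.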

Additional observations from a re-analysis of the deposited data

How the results depend on the processing

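Gad2 was eminence-high under all 11 alternatives and Gad1 and Slc32a1 under 10 each. Some of these could not have changed a call. A fold of 1.5 cannot remove a call made at 2. At Slc32a1, with 1 TSS and no covered base in CTX, neither the other choices of TSS nor the lack of scaling can. Gad1 lost the call with gene 5′ ends only, which are far from its peaks, and Slc32a1 with lists of equal length, which removed its MGE peak. Glutamate transporter genes with a peak in MGE numbered 1 instead of 2 with a −log10 q of at least 2 and with lists of equal length, and those in CTX 1 instead of 2 with the latter. Pathway genes called eminence-high numbered 0 in the report, 1 with lists of equal length (Th), 4 with a fold of 1.5 and 2 each with a −log10 q of at least 2, a minimum width, joined peaks or no scaling. Over all genes, cortex-high calls fell from 214 to 125 with lists of equal length and to 103 with a minimum width, and eminence-high calls rose from 448 to 740 with a fold of 1.5. The other 176 comparisons of counts stayed within 1.5 times. At single genes, 93 values moved and 205 did not. No paired analysis was possible because each region has 1 list made from its merged replicates, and for the same reason no replicate could be left out. The reads behind a peak are unknown, the peak edges carry an unknown error, and the effect of depth was not tested.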
